A study of Mus musculus with 6 samples.

Results

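The genes described here take up, reduce, transport, store, export and sense iron: Tfrc, Tfr2, Steap3, Slc11a2, Slc25a37, Fth1, Ftl1, Slc40a1, Aco1 and Ireb2. These 10 genes were taken from the 34761 genes named on a whole mouse genome array by the gene name printed beside each probe. They are read by 16 of the 55681 non-control probes. Between P38α-/- and P38α+/- bone marrow erythroblasts none of the 9 genes that could be tested changed by the threshold used, and the probes that separated the genotypes did so by less than 2-fold.

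An erythroblast needs more iron than almost any other cell, because each hemoglobin chain carries a heme. Transferrin loaded with ferric iron binds the transferrin receptor CD71, the product of Tfrc, and the complex is taken into an endosome, where Steap3 reduces the iron and Slc11a2 (DMT1) carries it into the cytosol. Mitoferrin-1, the product of Slc25a37, brings it into the mitochondrion for heme and iron-sulfur clusters. Fth1 and Ftl1 encode the ferritin shell that stores what is left over, and Slc40a1 encodes ferroportin, the exporter. Iron regulatory proteins, the products of Aco1 and Ireb2, bind hairpins called iron-responsive elements. They block translation of the ferritin mRNAs and protect the Tfrc mRNA from decay when iron is scarce, so an array reads only the part of this control that acts on mRNA level.

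RNA came from CD71highTer119+ erythroblasts sorted from the bone marrow of 3 P38α+/- mice (Mx1-Cre, 1 floxed allele) and 3 P38α-/- mice (Mx1-Cre, both alleles floxed), all C57Bl/6. Both genotypes carried Cre under the Mx1 promoter, which interferon switches on in blood-forming cells and in other tissues, and both received 3 injections of 300 µg PolyIC at 6 to 8 weeks of age. After 6 weeks of rest phenylhydrazine (PHZ), a drug that destroys red cells, was given at 100 mg per kg, and cells were taken on day 4 of recovery. The controls therefore also carry a deleted allele and the same injections, and no untreated mice were compared. Each array held the amplified RNA (10 ng) of 1 mouse.

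Levels are log2 signals minus the 75th percentile of the same array, computed from the 15152 probes that every one of the 6 arrays measured well above background, so 0 is the level of that percentile and 1 unit is 2-fold. Differences are P38α-/- minus P38α+/- throughout. P38α+/- replicate 1 had 53.1% of its probes well above background, and the other 5 arrays had 28.5% to 38.2%. The median of the 18317 tested probes differed by −0.16, and other scalings moved it to between −0.08 and 0.32, so differences are also given relative to the median probe. Mapk14, the gene of P38α, was not lower in the arrays labelled P38α-/-. By its brighter probe all 3 of them lay above all 3 P38α+/- arrays (difference 0.54, limma adjusted p = 0.185). Its dimmer probe differed by 0.012 (limma adjusted p = 0.991). The sources used here do not say whether either probe lies in the deleted part. In sorted erythroblasts of P38α-/- mice the paper reports an excised P38α locus by genomic PCR and loss of P38α protein by immunoblot. Of 10 erythroblast markers all 10 were bright enough to test, with a median difference of 0.026. Markers of earlier erythroid cells (4 of 5 tested) had a median difference of −1.35, with summed levels of −2.01 to −0.58 in P38α+/- and −2.86 to −1.82 in P38α-/-. Those of B cells (3 of 6 tested) had a median difference of −3.25, with summed levels of −2.92 to 0.27 and −4.24 to −2.45. Ms4a1 and Ebf1 were well above background on 3 P38α+/- and 0 P38α-/- arrays, and Cd34 on 3 and 1. The filter therefore kept these 3 genes through P38α+/- alone, where they are high, and the size of their differences is uncertain. None of the erythroblast, earlier erythroid or B cell markers passed, although Kit, Cd34 and Ebf1 did with the replicate block. The part of these markers in the results below was not tested.

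Several of the iron genes are read by more than 1 probe, and the probes of a gene did not always differ alike. The 60-base probes below lie upstream of the 3′ probe of Tfrc, Slc25a37, Slc11a2 or Ftl1, the genes whose probes differed unlike each other. They are given 5′ to 3′ as the array files list them, with mm9 positions. The second Tfrc probe spans 217 genomic bases and the Ftl1 probe 482, so both cross an intron, and each of the 5 has at least 1 reading frame without a stop.
Tfrc, position 1228 of the transcript, chr16:32620470-32620529, plus strand: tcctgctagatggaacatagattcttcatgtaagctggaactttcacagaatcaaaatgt
Tfrc, position 1732, chr16:32624877-32625093, plus strand: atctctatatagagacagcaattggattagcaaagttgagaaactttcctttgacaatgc
Slc25a37, position 304, chr14:69902797-69902856, minus strand: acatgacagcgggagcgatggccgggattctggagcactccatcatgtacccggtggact
Slc11a2, position 253, chr15:100240516-100240575, minus strand: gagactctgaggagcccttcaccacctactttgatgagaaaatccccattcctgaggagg
Ftl1, position 462, chr7:52714014-52714495, minus strand: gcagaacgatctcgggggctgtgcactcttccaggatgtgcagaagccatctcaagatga

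Of the 16 probes, 15 could be tested, meaning that the 3 arrays of 1 genotype or of both measured them well above background. They represent 9 of the 10 genes, Aco1 being too dim. By limma with Benjamini-Hochberg adjustment over all tested probes, 0 of the 9 genes passed an adjusted p of 0.05 with at least a 2-fold change, where 0.209% of the 13895 tested genes did (0.166% higher and 0.0432% lower in P38α-/-). The methods' t-test, run on the scaling and filter of this report, also called 0 of the 9. At an unadjusted p of at most 0.05, 3 of the 9 main probes passed (2 higher, 1 lower), against 20.1% of all main probes (4.87% higher, 15.2% lower). The main probe is the brightest tested probe of a gene. On these probes the genotypes did not overlap for Slc11a2 and Slc40a1, which were higher in P38α-/-, and for Ireb2, which was lower. That is 3 of 9 genes, where 27.2% of all tested genes did not overlap (7.38% higher, 19.8% lower). Ireb2 was well above background on 3 P38α+/- and 2 P38α-/- arrays, so the filter kept it through the genotype where it is high. With the stricter filter, which leaves Ireb2 out, the count was 2. Over all 15 probes the count was 5, with 3 higher and 2 lower, where 27.8% of all tested probes did not overlap (6.90% higher, 20.9% lower). The lower counts of 1 and 2 are no larger a share than the background, the higher counts of 2 and 3 are a larger one, and neither share was tested. With 3 arrays against 3, an exact permutation test of a single probe cannot give a p under 0.10.

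**Figure D1:**
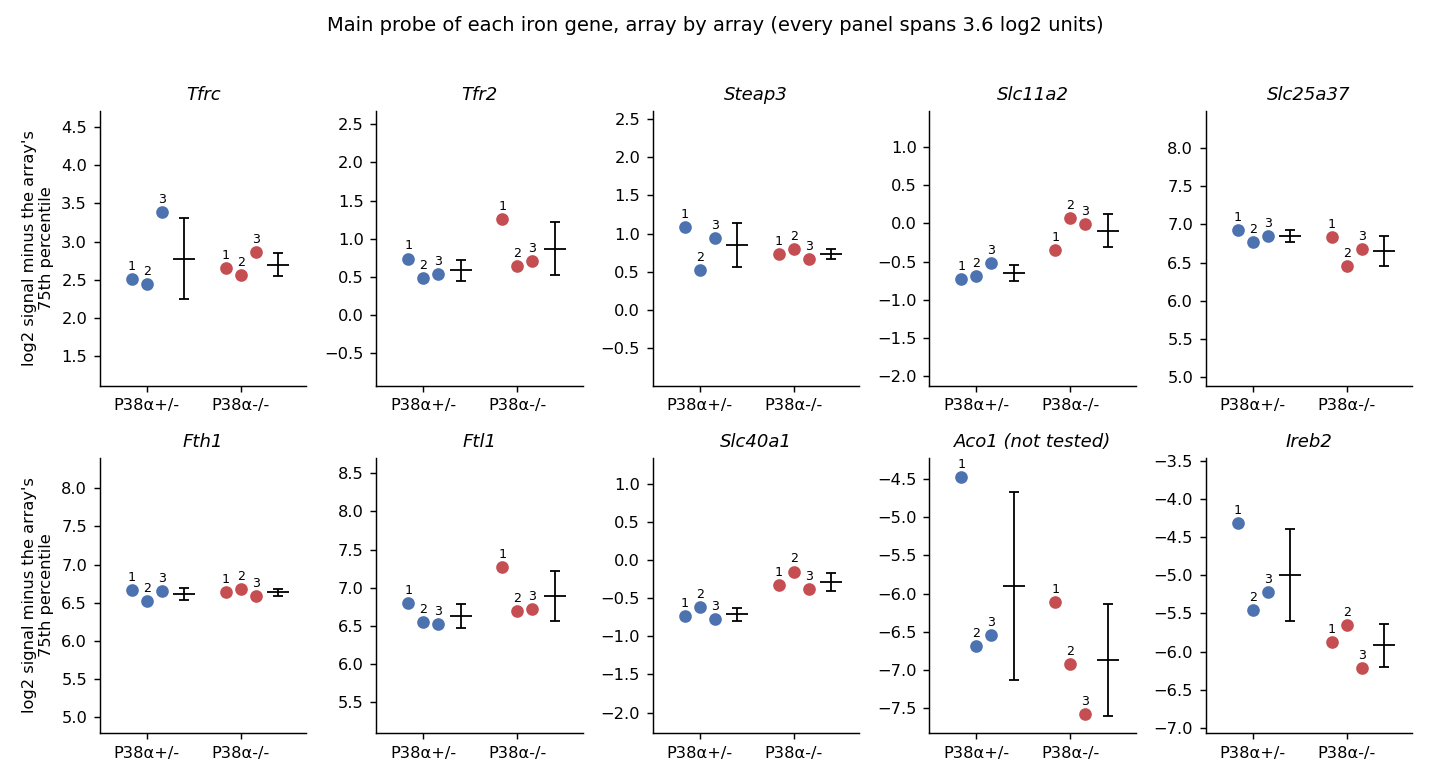
Level of the main probe of each of the 10 iron genes (y axis, log2 signal minus the array's 75th percentile) on the 3 P38α+/- arrays (blue) and the 3 P38α-/- arrays (red). Numbers are the replicates, the bar beside each group is its mean ± SD, and every panel spans the same number of log2 units, with levels not comparable between genes. The genotypes are apart for Slc11a2, Slc40a1 and Ireb2 and overlap for the rest.

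Tfrc was read by 3 probes, and the probe at the 3′ end of its transcript did not separate the genotypes. The sort itself chose cells by the protein of this gene, in both genotypes alike. The 3′ probe (position 4288, chr16:32632255-32632314) is printed 10 times on each array. Its level was 2.51, 2.44 and 3.38 in P38α+/- and 2.66, 2.57 and 2.87 in P38α-/-. P38α+/- replicate 3 was the highest of the 6, and the other 5 arrays lay within the range of 2.44 to 2.87. The 10 spots of an array had an SD of 0.023 to 0.040, which is the error of reading a spot and does not cover labelling, RNA or mouse. The difference was −0.079 (standard error 0.28, 95% interval −0.76 to 0.60, limma adjusted p = 0.903). It stood 0.081 above the median probe (−0.16 with quantile normalization), and its sign turned without P38α+/- replicate 3 (0.22), with the percentile taken over every probe (0.40), with spike-in centring (0.28) and with array weights (0.16).

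Both Tfrc probes nearer the 5′ end were lower in P38α-/-, without passing. At position 1228 the levels were 2.20, 2.78 and 3.46 in P38α+/- and 1.84, 2.30 and 1.93 in P38α-/-. Replicates 2 and 3 of P38α+/- were above all 3 P38α-/- arrays, and replicate 1 lay inside their range. The difference was −0.79 (95% interval −1.59 to 0.020, limma adjusted p = 0.245), and P38α-/- was lower in each of the 3 replicate numbers. At position 1732 the difference was −0.69 (95% interval −1.47 to 0.091, adjusted p = 0.281). P38α+/- replicate 3 was again the highest array by both probes, and without it the differences were −0.46 and −0.40. At position 1228 array weights gave an adjusted p of 0.0491 (difference −0.86, under 2-fold), and the authors' table a difference of −1.14 (adjusted p = 0.218). These weights were 3.97 for P38α-/- replicate 3 and 2.13 for P38α+/- replicate 2, and 0.47 to 0.77 for the other arrays. A fit with them rests mostly on those 2 arrays, and 11.8% of all genes passed the threshold under it.

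Tfr2, the second transferrin receptor, works with the erythropoietin receptor on erythroblasts. Its probe (position 2862) read 0.74, 0.49 and 0.54 in P38α+/- and 1.27, 0.64 and 0.71 in P38α-/-. P38α-/- replicate 1 stood apart above the other 5, which overlapped. The difference of 0.28 (95% interval −0.23 to 0.80, limma adjusted p = 0.484) was 0.088 without that array.

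Steap3, the ferrireductase of the endosome, was read by probes at positions 1792 and 2817 that gave almost the same small difference. The levels of the first were 1.09, 0.53 and 0.95 in P38α+/- and 0.73, 0.80 and 0.67 in P38α-/-. All 3 P38α-/- arrays fell inside the P38α+/- range. The differences were −0.12 (95% interval −0.58 to 0.34) and −0.14 (95% interval −0.71 to 0.42), with limma adjusted p of 0.761 and 0.769, and both turned positive with the percentile taken over every probe (0.36 and 0.34) or with spike-in centring (0.24 and 0.21).

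Slc11a2 had the lowest unadjusted p of any main probe among the iron genes. The probe at position 2961 (chr15:100218333-100218392) read −0.72, −0.68 and −0.52 in P38α+/- and −0.34, 0.07 and −0.01 in P38α-/-. All 3 P38α-/- arrays were higher than all 3 P38α+/- arrays, although P38α-/- replicate 1 was only just so. The difference was 0.55 (standard error 0.17, 95% interval 0.13 to 0.97), a fold of 1.46, and lay 0.71 above the median probe. It did not pass adjustment over all probes (limma adjusted p = 0.161). With array weights the adjusted p was 0.0258, still under 2-fold, in a range of 0.0258 to 1.00 over the alternatives. Under those weights 11.8% of all genes passed the threshold. The Slc11a2 gene is known to make mRNAs with different 3′ ends, with and without an iron-responsive element. The array files tie this probe to transcript variant 2 alone, and tie the probe at position 253 to both RefSeq variants. That shared probe read −2.24, −2.14 and −1.98 in P38α+/- against −2.26, −1.85 and −1.87 in P38α-/-, which overlap, with a difference of 0.13 (95% interval −0.30 to 0.56, limma adjusted p = 0.731).

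For Slc25a37 it was the probe nearer the 5′ end, and not the 3′ probe, that separated the genotypes. Its 3′ probe (position 3990, chr14:69860020-69860079) read 6.92, 6.77 and 6.85 in P38α+/- and 6.84, 6.45 and 6.68 in P38α-/-. The groups overlapped by P38α-/- replicate 1, and the difference of −0.19 (95% interval −0.58 to 0.20, limma adjusted p = 0.549) turned to 0.29 with the percentile taken over every probe and to 0.17 with spike-in centring. The probe at position 304 read 3.70, 3.89 and 4.12 in P38α+/- and 2.56, 3.24 and 3.27 in P38α-/-. Here all 3 P38α-/- arrays lay below all 3 P38α+/- arrays. This was the lowest adjusted p of any iron probe, with a difference of −0.88 (standard error 0.25, 95% interval −1.47 to −0.29, limma adjusted p = 0.143). By replicate number the differences were −1.14, −0.65 and −0.85. With array weights, where 11.8% of all genes passed the threshold, the adjusted p was 0.0403, under 2-fold. Over all alternatives the difference ran from −1.01 to −0.40.

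**Figure D2:**
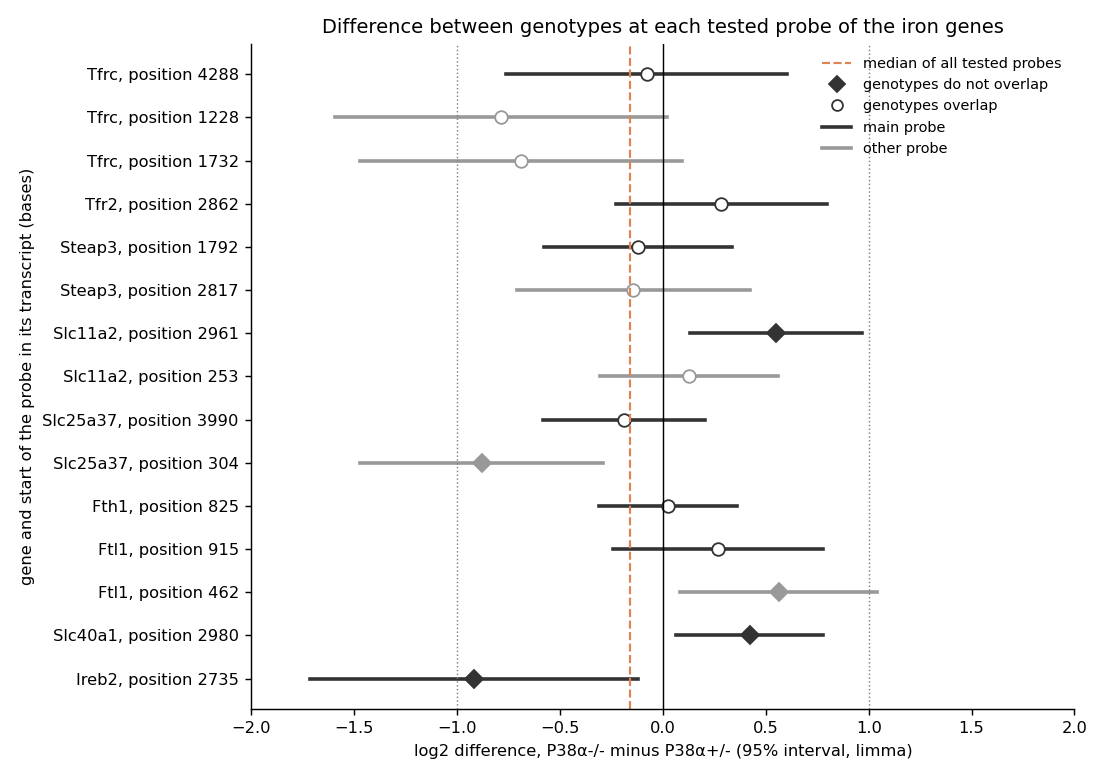
Difference between genotypes (x axis, log2, P38α-/- minus P38α+/-, with limma's 95% interval) at the 15 tested probes of the iron genes, listed by gene and by start in the transcript (y axis). Dark lines are main probes, grey lines other probes, filled diamonds probes whose genotypes do not overlap, the dashed line the median of all tested probes and dotted lines a 2-fold change. The 3 probes with intervals above 0 belong to Slc11a2, Ftl1 and Slc40a1, and the 2 below 0 to Slc25a37 and Ireb2.

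Fth1, the ferritin heavy chain with the site that oxidises iron, was the steadiest of the iron genes. It read 6.66, 6.52 and 6.66 in P38α+/- and 6.64, 6.67 and 6.59 in P38α-/-. All 6 arrays lay between 6.52 and 6.67 and the groups overlapped. The difference was 0.024 (95% interval −0.31 to 0.36, limma adjusted p = 0.942), or 0.18 relative to the median probe. It was −0.024 without P38α+/- replicate 2.

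Ftl1, the light chain, was read by a bright probe that may also match copies of the gene. The array files place that probe (position 915) on chromosome 17 and list other predicted transcripts for it, so its level is uncertain as a reading of Ftl1 alone. Its difference was 0.27 (95% interval −0.24 to 0.78, limma adjusted p = 0.510), or 0.077 without P38α-/- replicate 1. The probe at position 462 read 4.81, 4.36 and 4.59 in P38α+/- and 5.40, 4.93 and 5.12 in P38α-/-. All 3 P38α-/- arrays were higher, by 0.59, 0.56 and 0.54 in the order of the replicate numbers. The difference was 0.56 (standard error 0.20, 95% interval 0.084 to 1.04), or 0.72 relative to the median probe, and did not pass (limma adjusted p = 0.190). Array weights, where 11.8% of all genes passed the threshold, gave an adjusted p of 0.0341, under 2-fold. The probe crosses an intron, and copies without introns could still match it, so the split of signal between copies was not tested.

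Slc40a1, the ferroportin gene, was higher in P38α-/- by its single probe (position 2980, chr1:45965255-45965314). It read −0.73, −0.61 and −0.78 in P38α+/- and −0.33, −0.15 and −0.38 in P38α-/-. The groups were apart, and the differences by replicate number were 0.40, 0.46 and 0.40. The difference was 0.42 (standard error 0.15, 95% interval 0.066 to 0.78, limma adjusted p = 0.188), a fold of 1.34, and lay 0.58 above the median probe. It stayed between 0.32 and 0.90 over all alternatives and passed under none of them. Macrophages, which feed erythroblasts in the marrow islands, also express ferroportin. Of 10 macrophage markers 7 were tested and all 7 lay below the median probe, where 52.2% of all main probes lie above it. Of these, 1 was lower at an unadjusted limma p of at most 0.05, where 15.2% of all main probes were. Groups were apart and lower for 2, where 19.8% of all main probes were. Adgre1, C1qa and Spic were well above background on 3 P38α+/- arrays but on 1, 2 and 2 P38α-/- arrays, so the filter kept them through P38α+/- alone. Cd163, Mrc1 and Siglec1 were not well above background on any array. The summed level of the 10 was −0.53 to 0.68 in P38α+/- and −1.19 to −0.19 in P38α-/-, and their part in the Slc40a1 value was not tested. In a bulk sample fewer cells of a type and less RNA per cell cannot be told apart.

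The genes of the iron sensors were near the limit of detection. Ireb2 was well above background on 3 P38α+/- arrays and 2 P38α-/- arrays, and read −4.31, −5.45 and −5.22 against −5.87, −5.66 and −6.22. All 3 P38α-/- arrays were lower, by margins of 1.56, 0.20 and 1.00 in replicate order. The difference was −0.92 (standard error 0.33, 95% interval −1.72 to −0.12, limma adjusted p = 0.195). The array with the highest Ireb2 level, P38α+/- replicate 1, was also the one with the most probes above background, and without it the difference was −0.58. It was smaller under every other scaling or background setting tried, at −0.16 with quantile normalization, −0.44 with the percentile taken over every probe, −0.56 with spike-in centring, −0.26 with normexp background and −0.13 in the authors' table. Aco1, cytosolic aconitase when it holds a cluster and iron regulatory protein when it does not, was well above background on 1 P38α+/- array and on 0 P38α-/- arrays. It read −4.48, −6.68 and −6.54 against −6.10, −6.93 and −7.57, which overlap (exact permutation p = 0.40). With only 1 array well above background, the Aco1 values set no lower bound on a difference between genotypes.

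For Tfrc, Slc25a37 and Slc11a2 the probe nearest the 5′ end lay lower, relative to the 3′ probe of the same transcript, in P38α-/- than in P38α+/-. This contrast sits within an array and so does not depend on the percentile. For Slc11a2 the 5′ probe minus the 3′ probe was −1.51, −1.46 and −1.46 in P38α+/- and −1.91, −1.92 and −1.86 in P38α-/-. The groups were apart with an SD of 0.03 in each, and differed by −0.42 (two-sided exact permutation p = 0.10, the smallest possible). The 3′ probe of Slc11a2 is tied to a single RefSeq variant and the 5′ probe to both. In this contrast probe position and variant cannot be told apart. For Tfrc the contrast differed by −0.71 and for Slc25a37 by −0.69, with groups that overlapped (exact permutation p = 0.20 for each). Steap3 differed by 0.024 (exact permutation p = 0.90). Ftl1 went the other way, by 0.30, with its groups apart (exact permutation p = 0.10). Its probes start at positions 462 and 915, closer together than those of any transcript in the array-wide comparison below. The probe at position 915 is placed on chromosome 17 and may also match copies of the gene. The Ftl1 value is therefore uncertain as a contrast within a single transcript.

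The same contrast moved across the array as a whole. Over 898 transcripts with tested probes at least 1000 bases apart, the median difference was −0.20, and 70.2% of transcripts were lower in P38α-/-. The array medians, centred on each transcript's mean, were 0.056, 0.093 and 0.13 in P38α+/- and −0.22, −0.018 and −0.060 in P38α-/-, which do not overlap. Tfrc and Slc25a37 lay further out than the median, with 118 and 127 of the 898 transcripts as low or lower, and Slc11a2 had 261. The median grew with distance, from −0.13 at 500 bases or more (1253 transcripts) to −0.29 at 2000 or more (454 transcripts). The part of this shift in the Tfrc, Slc25a37 and Slc11a2 contrasts was not tested, and the comparison was chosen after the probe values were seen.

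**Figure D3:**
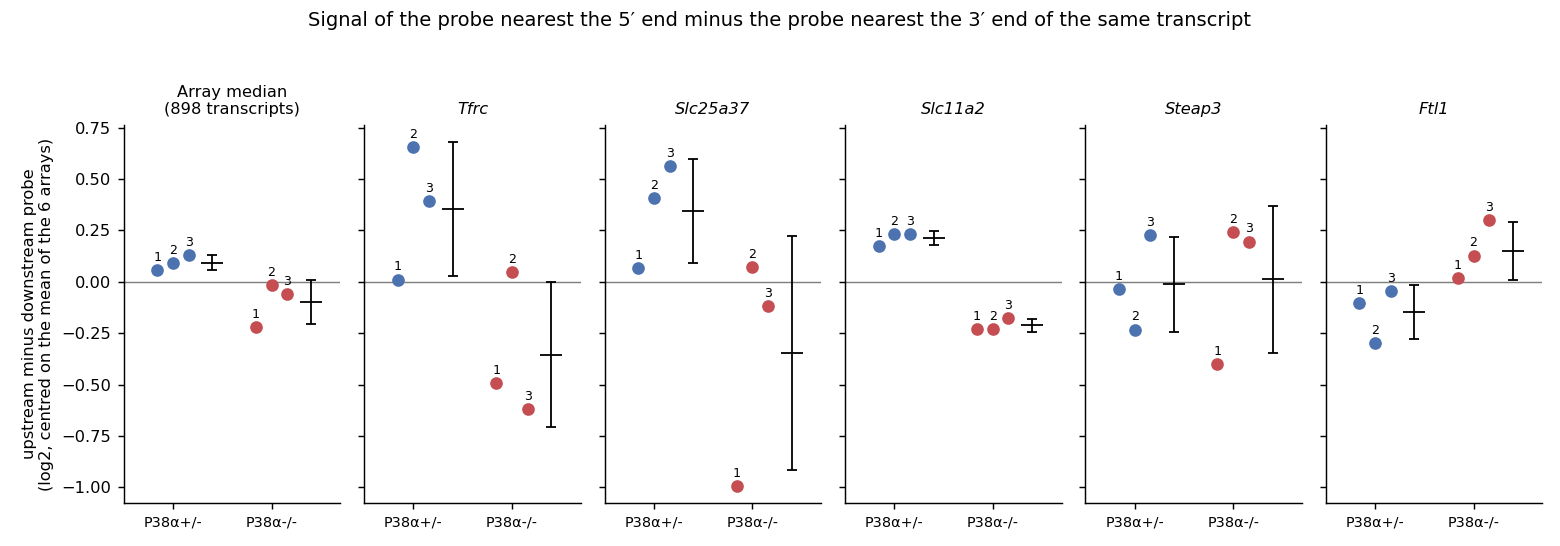
Level of the probe nearest the 5′ end minus that of the probe nearest the 3′ end of the same transcript (y axis, log2, centred on the mean of the 6 arrays), for the median of 898 transcripts and for 5 iron genes, on P38α+/- (blue) and P38α-/- (red) arrays with mean ± SD beside them. The groups are apart for the array median, Slc11a2 and Ftl1, with Ftl1 in the opposite direction. The Ftl1 probes lie closer together than those of the 898 transcripts. The Ftl1 probe taken as nearest the 3′ end is placed on chromosome 17, so its contrast is uncertain. The 3′ probe of Slc11a2 is tied to a single RefSeq variant and the 5′ probe to both.

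Across the 6 arrays the level of Tfrc followed that of no other iron gene closely, with Pearson correlations between −0.34 and 0.28. The genes outside the iron list with the most similar main probe were Srsf10 (r = 0.991), Rbl1 (0.991) and Cdca4 (0.983), which share with Tfrc a high P38α+/- replicate 3. Slc11a2 and Slc40a1, both higher in P38α-/-, had a correlation of 0.86. Ireb2 was most like Aco1 (0.88), both being dim. These are descriptions over 6 points that share arrays and genotype.

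The wider iron pathway was described from a list of 62 further genes, of which 61 are on the array and 42 could be tested. By limma 0 of the 42 passed the threshold, and 0 passed by the methods' t-test. At an unadjusted p of at most 0.05 there were 3, of which 2 were higher and 1 was lower, where 20.1% of all main probes passed. The genotypes did not overlap for 5, with 3 higher and 2 lower, where 27.2% of all main probes did not, and 32 lay above the median probe and 10 below. All 3 of the listed oxidases were too dim to test. Iron-sulfur cluster assembly was the largest group, with 17 of 17 genes tested and 15 of them above the median probe. Its median difference was 0.058, or 0.22 relative to the median probe, where 52.2% of all main probes lie above it. Other sets leaned the same way. Of the 10 erythroblast markers 8 lay above the median probe, with a median of 0.19 relative to it, and of the 9 tested iron genes 7 did.

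Within that group Lyrm4, which steadies the cysteine desulfurase, read −1.36, −1.51 and −1.46 in P38α+/- and −0.81, −0.63 and −0.82 in P38α-/-. The groups were well apart, with a difference of 0.69 (standard error 0.14, limma adjusted p = 0.103). Among the alternatives it passed under 1, the percentile taken over every probe (1.17, adjusted p = 0.0494), where 5.38% of all genes passed. Its adjusted p ran from 0.0198 to 1.00. Ciao1, of the cytosolic assembly machinery, differed by 0.55 (adjusted p = 0.130) and Nfs1, the desulfurase itself, by 0.30 (adjusted p = 0.285). Hspa9, the mitochondrial chaperone of this pathway, differed by −0.32 (adjusted p = 0.258) and Abcb10, a carrier outside the group that steadies mitoferrin-1, by −0.17 (adjusted p = 0.527). Both turned positive with the percentile taken over every probe (0.16 and 0.31) or with spike-in centring (0.037 and 0.19).

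Erfe (Fam132b in the array files), erythroferrone, the hormone by which erythroblasts lower hepcidin, had the largest difference of the tested pathway genes and was singled out after its values were seen. It read −2.13, −2.78 and −0.64 in P38α+/- and −0.49, −1.15 and 0.060 in P38α-/-. P38α+/- replicate 3 lay within the P38α-/- range, so the groups overlapped, and the difference was 1.32 (standard error 0.59, limma adjusted p = 0.260). It passed with the percentile taken over every probe (1.81, adjusted p = 0.0196) and with array weights (2.07, adjusted p = 0.0406), under which 11.8% of all genes passed. Slc11a1, a metal transporter of phagocytes, was also singled out after its values were seen, with the lowest difference of the 42 at −1.09 (adjusted p = 0.190) and groups that overlapped. All 10 of 10 neutrophil markers were lower at an unadjusted p of at most 0.05, 9 of them with groups apart, where 15.2% and 19.8% of all main probes were. Their summed level was 6.73 to 8.10 in P38α+/- and 5.81 to 6.33 in P38α-/-, and their part in the Slc11a1 value was not tested.

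**Figure D4:**
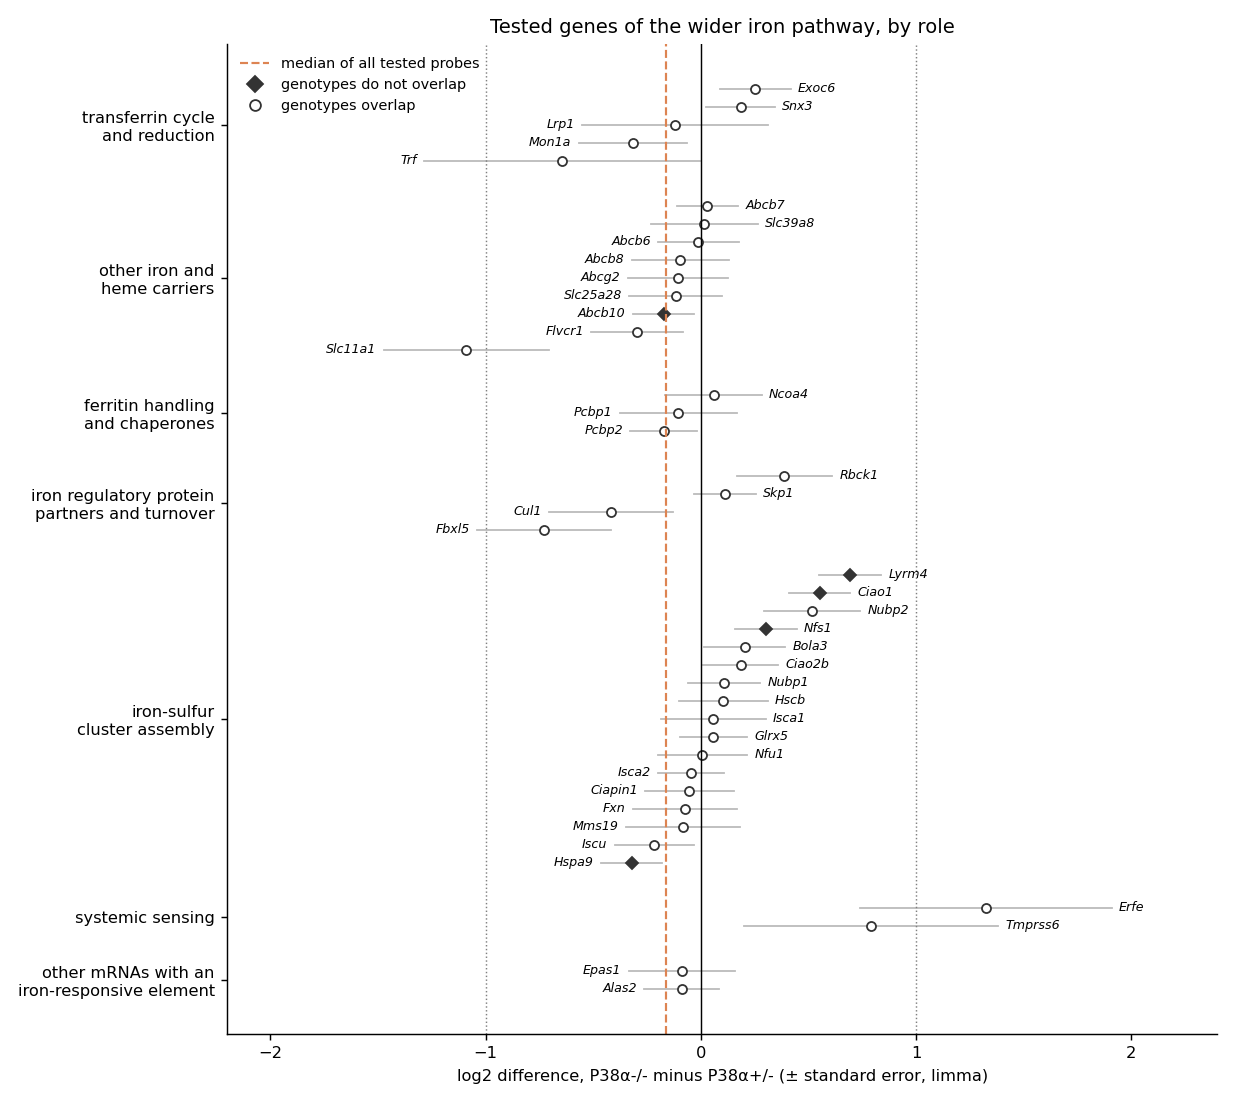
Difference between genotypes (x axis, log2, P38α-/- minus P38α+/-, ± limma's standard error) for the 42 tested genes of the wider iron pathway, grouped by role (y axis). Filled diamonds mark genes whose genotypes do not overlap, the dashed line the median of all tested probes and dotted lines a 2-fold change. Erfe and Slc11a1 reach past 2-fold and neither passes the test, and 15 of 17 iron-sulfur cluster genes sit to the right of the median, Hspa9 and Iscu to its left.

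**Figure D5:**
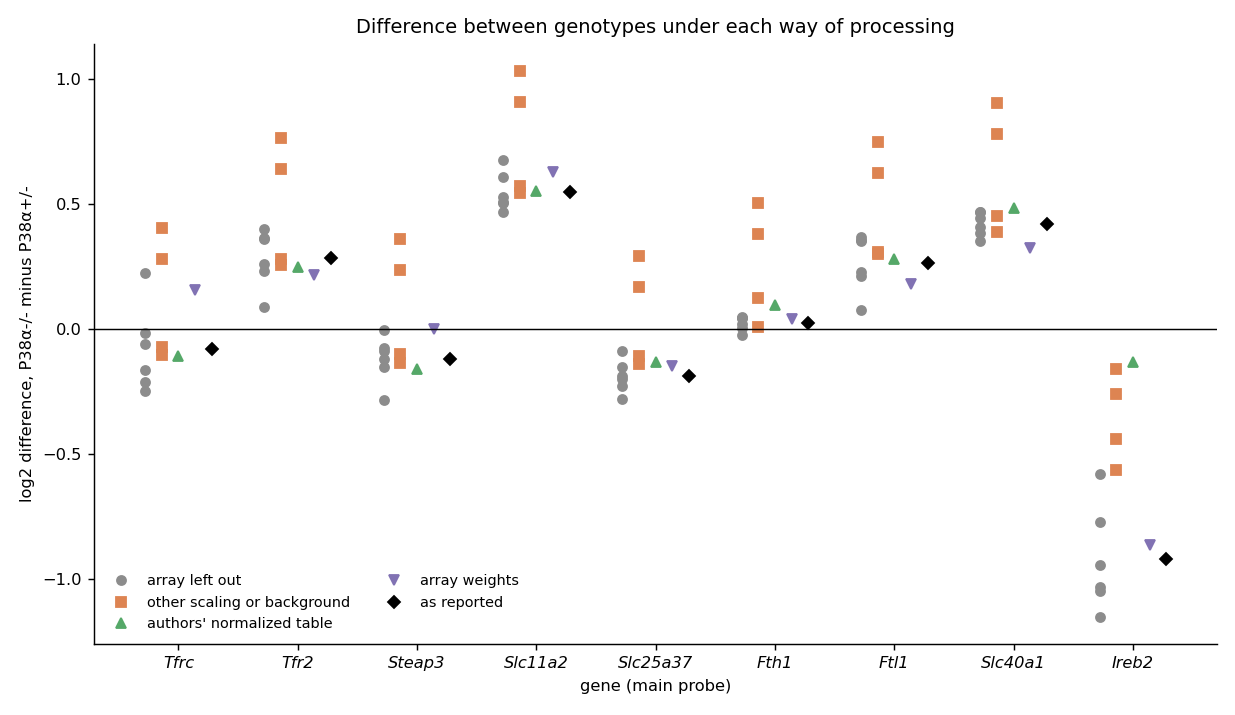
Difference between genotypes (y axis, log2, P38α-/- minus P38α+/-) of the main probe of each tested iron gene (x axis) as reported (black) and under the other ways of processing that can move it: an array left out (grey), another scaling or background (orange), the authors' table (green) or array weights (purple). Slc11a2, Slc40a1, Tfr2 and Ftl1 stay above 0 and Ireb2 below it throughout, and Tfrc, Steap3, Slc25a37 and Fth1 cross 0 under at least 1 setting.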

How the data were processed

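Intensities were deposited by the authors as scanner output (Agilent Feature Extraction 10.7.3.1, 1 colour, Cy3), with background subtracted within each array and no scaling between arrays. The authors also deposited normalized intensities, used only as an alternative, in which the P38α-/- replicate 2 column has a Spearman correlation of 0.898 with its scanner signal (1.00 for the other 5). Control spots and outlier-flagged spots were dropped, and repeated spots averaged. Log2 signals were scaled to the 75th percentile as the report describes, and a probe was tested if the 3 arrays of either genotype measured it well above background and every array held a value. Genotypes were compared with limma 3.58.1 (lmFit, eBayes, two-sided, R 4.3.3) with Benjamini-Hochberg adjustment. The fit was checked on simulated data. Probe positions are mm9, and current symbols came from RefSeq tables.

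Members and lists were chosen with earlier results of these data known, and 1 gene of the wider list is not reported here. The genes named were all 10 members, and from the wider list those that passed or, failing that, up to 4 largest differences each way with genotypes apart and all 6 arrays above background, beside Erfe and Slc11a1, chosen after their values were seen. The series' design text describes pairs of mice, and deviations from the genotype mean correlated between arrays of the same number (0.39, 0.24 and 0.39). Between arrays of different number the correlations were −0.37 to 0.060. The main fit leaves this pairing out, as the methods' unpaired test does, and only the replicate block takes it in. Slide 2 held P38α-/- replicate 3 and no other array, and leaving that array out is the same as blocking on slide. Each array is 1 mouse, and 6 arrays limit the precision. Alternatives were other scalings and background correction, the filter on dim probes, the authors' table, the replicate block, array weights, the methods' t-test and each array left out.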

Additional observations from a re-analysis of the deposited data

How the results depend on the processing

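Under 17 other ways of processing (16 for Ireb2), the 9 main probes gave 152 values, of which none gained a call. The filters, the block, the methods' t-test and the fold limit cannot move a difference (44 values), and of the other 108 values 99 kept their direction. The 9 that turned were those of Tfrc (0.40 with the percentile of all probes, 0.28 with spike-in centring, 0.16 with array weights and 0.22 without P38α+/- replicate 3, in a range of −0.25 to 0.22 with 1 array left out), Steap3 (0.36 and 0.24), Slc25a37 (0.29 and 0.17) under the first 2 of these, and Fth1 (−0.024 without P38α+/- replicate 2, in a range of −0.024 to 0.050). The other Steap3 probe turned likewise (0.34 and 0.21), as did Hspa9 (0.16 and 0.037) and Abcb10 (0.31 and 0.19). The count of iron genes with genotypes apart was 5 with the percentile of all probes (Slc11a2, Slc40a1, Fth1, Tfr2 and Ftl1). It was 0 with spike-in centring, 2 with normexp background, and 2 with the stricter filter, which leaves Ireb2 out. With an array left out it was 3 to 5, reaching 5 without P38α+/- replicate 1 or 2. Groups of 2 and 3 arrays come apart more easily than groups of 3 and 3. The share of all genes apart was not computed under these other settings, so these counts have no background beside them. Of the other iron genes 2 were called with the percentile of all probes (Erfe and Lyrm4) and 3 with array weights (Erfe, Slc11a1 and Fbxl5). Over the whole array 29 genes were called, against 14 with quantile normalization, 748 with the percentile of all probes, 5 with spike-in centring, 17 with normexp background, 0 without a filter, 62 with a stricter filter, 11 in the authors' table, 1636 with array weights and 2 by the methods' t-test. The replicate block gave 62 and changed no call of an iron gene (adjusted p of the tested probes from 0.0768 to 0.913). Leaving out 1 array gave 0 to 100, with 100 without P38α+/- replicate 3 and 0 without P38α+/- replicate 2 or any single P38α-/- array. The cause of these shifts was not tested. Dim probes such as Ireb2 and Aco1 are limited by signal over background.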
